A study of Mus musculus with 4 samples.

Results

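The RNAs Malat1 and Neat1 and 7 genes for proteins of the nuclear bodies they occupy (Sfpq, Nono, Pspc1, Tardbp, Son, Srrm1 and Srrm2) were examined in mouse embryonic fibroblasts (MEFs) exposed to pigment epithelium-derived factor (PEDF). These 9 genes were taken by symbol from the 55487 gene rows of the count data, and all 9 passed the limit of 10 counts summed over the libraries, as did 19384 genes in all. Malat1 and Neat1 were selected on their counts in PEDF and control libraries, so their values in that comparison are given as a description, with no test. The 7 protein genes were chosen by name and function, with earlier results of these data known.

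RNA was sequenced from wild-type MEFs at passage 2 per the labels, whereas the study's text gives a later passage, and they were grown in DMEM with 10% serum. The control MEFs were untreated, and the PEDF MEFs received recombinant PEDF purified from mammalian cells at 100 ng/mL for 24 h. Each of 2 experiments, made from different embryos, gave 1 control and 1 PEDF library, for 4 libraries in all. PEDF is a secreted protein of the serpin family, and the study asked whether it delays senescence of cultured cells. Polyadenylated RNA was selected before sequencing, and the counts are of reads per gene over all of its transcripts.

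Malat1 is a long, mostly unspliced RNA that stays in the nucleus and collects in nuclear speckles, the bodies in which splicing factors are stored. Neat1, encoded beside it, gives a short polyadenylated transcript and a long transcript, and the long transcript is the scaffold of paraspeckles. Both Malat1 and long Neat1 end where RNase P cuts in front of a tRNA-like structure, and their ends are protected by a triple helix between U-rich stretches and an encoded run of A, in place of a poly(A) tail added after cleavage.

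Malat1 (ENSMUSG00000092341) lies on the minus strand at chr19:5795690-5802672 of GRCm38, with 4 annotated transcripts and 6983 bases of exon. Neat1 (ENSMUSG00000092274) lies on the same strand at chr19:5824708-5845478, with 20771 bases of exon. The stretches at which the RNAs end are shown first, since selection of polyadenylated RNA acts on runs of A. They were read from the GENCODE M21 transcripts, in lower case, with the 16 and 11 bases that both RNAs share in capitals. The Malat1 stretch is an exonic window at chr19:5795980-5796089, and the Neat1 stretch is the last 120 bases of the long transcript, at chr19:5824708-5824827.
Malat1-201: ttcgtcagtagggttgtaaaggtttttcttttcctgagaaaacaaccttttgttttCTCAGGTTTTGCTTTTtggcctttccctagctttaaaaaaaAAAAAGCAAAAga
Neat1-201: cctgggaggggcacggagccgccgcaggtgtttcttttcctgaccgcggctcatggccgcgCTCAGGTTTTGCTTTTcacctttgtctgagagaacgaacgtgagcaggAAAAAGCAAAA

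These stretches occurred in this order in transcripts of 2 of 55450 annotated genes, which were Malat1 and Neat1. The first was found in 2 genes and the second in 376. In Malat1-201 a run of 12 A lies at bases 6674 to 6685, which is 298 bases before the annotated end, so the annotated Malat1 transcript runs past the encoded run of A. The annotated ends of Malat1-201 (chr19:5795690-5795729) and of the short Neat1 transcript (chr19:5842307-5842346) hold the poly(A) signal AATAAA, in capitals below.
Malat1-201, last 40 bases: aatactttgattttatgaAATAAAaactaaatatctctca
Neat1 short transcript, last 40 bases: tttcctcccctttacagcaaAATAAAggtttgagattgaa

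The letters AATAAA were in the last 40 bases of 27.1% of 134529 transcripts of 200 bases or more, searched on the sense strand, and they were not in the last 40 bases of Neat1-201. Counts per gene do not separate the short from the long Neat1 transcript, nor Malat1 reads on either side of the A run.

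The libraries held 14722848 to 18144640 counts and between 22135 and 22647 genes with a count, and their TMM factors were 0.983 to 1.01. All 9 fibroblast markers were detected, with Col1a1 at 17302 to 24006 counts per 1000000 counts (CPM), and they summed to 46722 CPM in control against 42275 with PEDF in experiment 1, and to 54507 against 45610 in experiment 2. In the blocked edgeR comparison, 4 of these 9 markers were called lower (Col1a1, Col1a2, Pdgfrb and Fn1) and 1 higher (Dcn, 0.35, edgeR adjusted p = 1.14e-06), against 2.07% and 1.67% of all genes tested, so the list did not move one way. The block in DESeq2 called 2 of the 9, where it called 117 of all 19384 genes tested. Col1a2 lost its call in edgeR with a trend over exon length removed (-0.03, edgeR adjusted p = 0.803). Markers of other cells summed to 79.2 to 124 CPM for macrophages, 14.3 to 14.8 for endothelium, 41.4 to 55.4 for epithelium and 222 to 266 for skeletal muscle. The skeletal muscle sum was higher with PEDF in both experiments (222 and 251 CPM, then 234 and 266). In the blocked edgeR comparison 2 of its 4 markers were called higher, Acta1 (edgeR adjusted p = 0.0353) and Des (0.0309), and neither was with the length trend removed. Of the 5 macrophage markers Lyz2 was called higher (0.39, edgeR adjusted p = 2.01e-05), with 60.5 and 62.6 CPM in control and PEDF of experiment 1 and 26.3 and 46.1 in experiment 2. The others were not called, with Csf1r at -0.14, Ptprc at -0.08, Adgre1 at -0.02 and Cd68 at 0.15. The blocked median of the macrophage list was -0.02, so it did not move one way. DESeq2 with the block called 0 markers of either list (0 unadjusted), and the part of cell composition in the results was not tested. In such bulk RNA, fewer cells of a type and less RNA per cell cannot be told apart.

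Malat1 was lower with PEDF in both experiments and Neat1 was lower by a smaller and less even amount. Among the protein genes, the speckle genes Son, Srrm1 and Srrm2 had lower counts with PEDF in both experiments. The paraspeckle genes Sfpq, Nono and Pspc1 had log2 ratios from -0.026 to 0.053, and Tardbp, also of paraspeckles, stood at -0.08 in both experiments. Without regard to the pairing of libraries, 0 of the 7 protein genes passed the test. With the experiment as a block, Son and Srrm2 did. These genes are also long, and long genes as a group were lower with PEDF, so each value is also given with the trend over length removed.

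**Figure D1:**
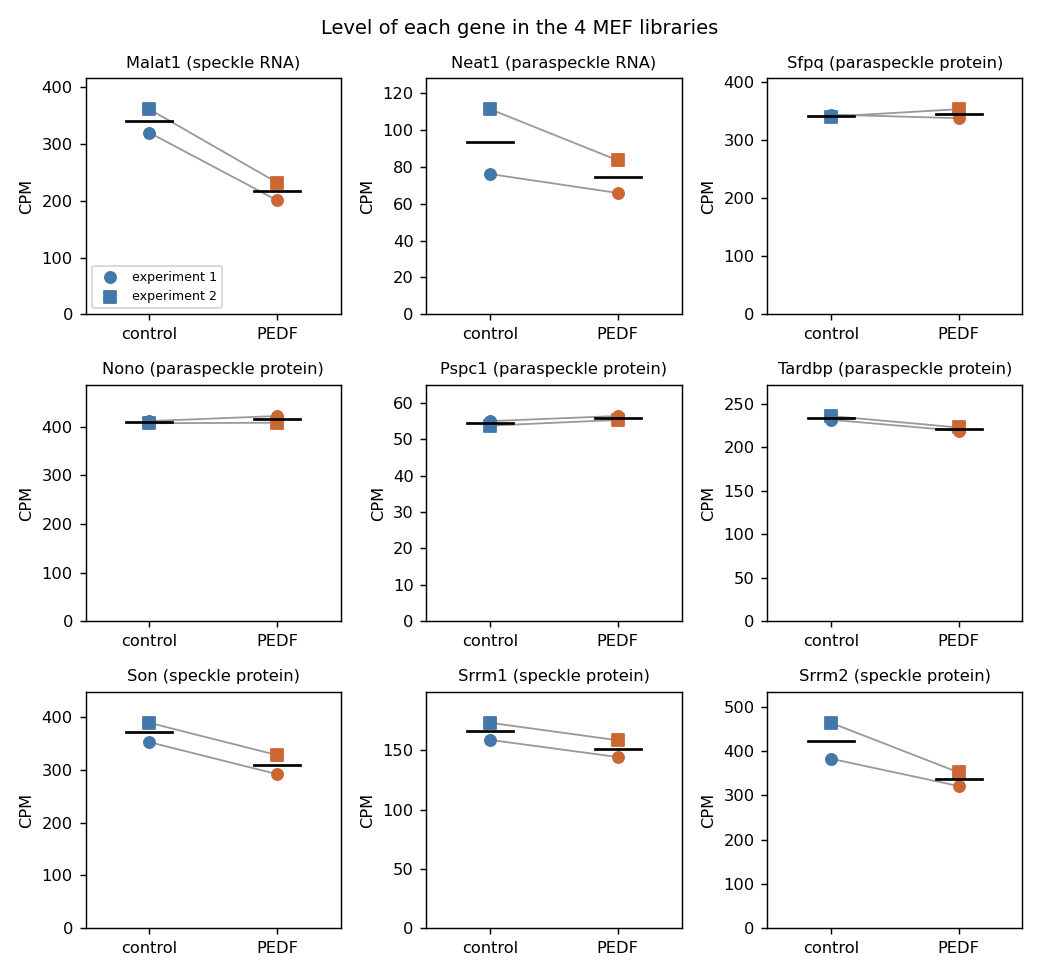
Level of each of the 9 genes in counts per 1000000 (CPM, vertical axis, from 0) in control and PEDF libraries, with circles for experiment 1, squares for experiment 2, a grey line joining the libraries of an experiment, and a black bar at the mean of 2 libraries. Malat1 sits at 320 and 361 CPM in control and at 201 and 232 CPM in PEDF, while the lines of Sfpq, Nono and Pspc1 are nearly flat.

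Malat1 had 4724 counts in control and 3124 in PEDF in experiment 1, and 6448 and 4138 in experiment 2. In CPM these were 320, 201, 361 and 232, so both PEDF libraries lay below both controls. The mean was 341 ± 29.3 CPM (SD, n = 2) in control and 217 ± 22.1 CPM (SD, n = 2) in PEDF. PEDF cultures held 62.8% and 64.3% of the control level in experiments 1 and 2. As log2 ratios these were -0.67 (95% counting interval -0.74 to -0.61) and -0.64 (-0.69 to -0.58), so the experiments differed by less than their counting error. Such intervals cover counting error only, and reads copied in amplification are not independent molecules. The edgeR estimate over the 4 libraries was -0.65 with a standard error of 0.08, and blocking by experiment lowered that error to 0.05. Of the 8764 genes with a mean of at least 16 CPM, 2 had a lower estimate than Malat1 in the blocked comparison.

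Neat1 had 1123 and 1023 counts in control and PEDF of experiment 1, and 1985 and 1488 in experiment 2. Its levels were 76.1 and 65.8 CPM in experiment 1, and 111 and 83.5 CPM in experiment 2. The PEDF library of experiment 2 was above the control library of experiment 1, so the groups overlapped, although PEDF was the lower library within each experiment. The means were 93.7 ± 24.9 CPM in control and 74.7 ± 12.5 CPM in PEDF (SD, n = 2 each). PEDF cultures held 86.5% and 75.1% of the control level, or log2 ratios of -0.21 (-0.33 to -0.09) and -0.41 (-0.51 to -0.32). The estimate was -0.33 with a standard error of 0.26 without the block and -0.32 with a standard error of 0.06 with it. In this gene the difference between experiments was at least as large as that between PEDF and control. In a fit without the block and without the control library of experiment 2, the log2 fold change was -0.0257. That fit sets the PEDF libraries of both experiments against the control of experiment 1 alone, so the difference between experiments enters it.

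The ratio of Malat1 to Neat1 in TPM, transcripts per 1000000 and so a level per length, was 12.5 in control and 9.08 in PEDF in experiment 1, and 9.66 and 8.27 in experiment 2. It was the lower ratio with PEDF in both experiments. The control ratio of experiment 2 was close to the PEDF ratio of experiment 1.

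Several annotated rows lie inside these genes, and whether the counting used strand is not given in the sources used here. Gm37376, 453 bases on the opposite strand within Malat1 (chr19:5801941-5802393), had 506 and 398 counts in control and PEDF of experiment 1, and 697 and 566 in experiment 2. These were 10.7%, 12.7%, 10.8% and 13.7% of Malat1's counts in the same libraries. Its blocked log2 fold change was -0.36 ± 0.09 (SE, edgeR adjusted p = 0.00347). Reads of a gene and of its antisense partner cannot be told apart without strand, so this row is no measure independent of Malat1. The rows on Malat1's and Neat1's own strand inside them (Gm27694, Gm27533, Gm27505 and Gm28006) had 0 counts in each library.

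Of 23 gene rows within 100 kb of Malat1 or Neat1, 16 had enough counts, and Gm37376 was the 1 with an adjusted p under 0.05 in the blocked comparison, where 2.07% of all genes tested were called lower and 1.67% higher. The block in DESeq2 called 0 of the 16 (2 at an unadjusted p under 0.05, against 2.33% of all genes). The protein genes nearby did not pass. Frmd8 had a blocked log2 fold change of -0.10, and Ltbp3, a TGF-beta-binding protein gene, had -0.14 (edgeR adjusted p = 0.0584). The median of the 16 was -0.10, against 0.00 for all genes tested.

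Sfpq, Nono and Pspc1 encode the related RNA-binding proteins that coat long Neat1, and Sfpq and Nono are needed for paraspeckles to form. Sfpq (ENSMUSG00000028820, chr4:127021324-127037013, plus strand) had 343 CPM in control and 337 in PEDF in experiment 1, and 340 and 352 in experiment 2. Nono (ENSMUSG00000031311, chrX:101429318-101448591, plus strand) had 412 and 422 CPM in experiment 1, and 407 and 408 in experiment 2. Pspc1 (ENSMUSG00000021938, chr14:56720710-56778316, minus strand) had 55.0 and 56.4 CPM, then 53.7 and 55.3. In Pspc1 both PEDF libraries were above both controls, by less than the counting error of either experiment, and in Sfpq the experiments moved in opposite directions.

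The log2 fold change was 0.01 for Sfpq (95% interval -0.13 to 0.16, edgeR adjusted p = 0.977), 0.02 for Nono (-0.12 to 0.16, 0.965) and 0.04 for Pspc1 (-0.13 to 0.21, 0.940). With the block the intervals narrowed to -0.08 to 0.10, -0.07 to 0.11 and -0.10 to 0.18. The TPM ratio of Nono to Sfpq was 1.30 and 1.36 in control and PEDF of experiment 1, and 1.30 and 1.26 in experiment 2, so the proportion of these messages moved by little and in opposite directions.

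Tardbp (ENSMUSG00000041459, chr4:148612382-148627019, minus strand) encodes TDP-43, which binds UG repeats in RNA and is found in paraspeckles. It had 231 CPM in control and 219 in PEDF in experiment 1, and 236 and 222 in experiment 2, with both PEDF libraries below both controls. The log2 ratio was -0.08 in each experiment, and the counting interval lay below 0 in each (-0.15 to -0.01 and -0.15 to -0.02). The difference was not past the threshold without the block (log2 fold change -0.08, 95% interval -0.23 to 0.06, edgeR adjusted p = 0.818) or with it (-0.18 to 0.01, edgeR adjusted p = 0.438). The letters TGTGTG occurred 33 times in Neat1-201, or 1.59 per kb of its sense strand without overlaps, and 93.7% of 7040 transcripts of 5000 bases or more held fewer per kb. Malat1-201 held 3, or 0.43 per kb, against a median of 0.516 per kb. These matches are letters in the annotated transcripts and not measured binding.

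Son, Srrm1 and Srrm2 are large proteins with repeats of serine and arginine, and Son and Srrm2 form the core of nuclear speckles. Son (ENSMUSG00000022961, chr16:91647506-91679221, plus strand) had 353 CPM in control and 292 in PEDF in experiment 1, and 389 and 328 in experiment 2. Its log2 ratios were -0.27 (-0.33 to -0.22) and -0.25 (-0.30 to -0.20), and both PEDF libraries were below both controls. Without the block the log2 fold change was -0.26 ± 0.08 (SE), with an unadjusted p of 0.00414 that gave an adjusted p of 0.695 in edgeR. With the block it was -0.26 ± 0.05 (edgeR adjusted p = 2.74e-06), and Son was called lower. The blocked fit rests on 2 experiments and draws the spread of each gene toward that of other genes. Its standard errors were 0.045 for Sfpq, 0.045 for Nono, 0.046 for Son and 0.045 for Srrm2. Its p-values thus do not measure the spread of a single gene between the experiments.

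Srrm2 (ENSMUSG00000039218, chr17:23790532-23824741, plus strand) had 383 CPM in control and 321 in PEDF in experiment 1, and 465 and 352 in experiment 2. All PEDF values lay below the control values, and the difference was larger in experiment 2, with log2 ratios of -0.25 (-0.31 to -0.20) and -0.40 (-0.45 to -0.35). Whether the experiments differ in this was not tested, since each has 1 library per group. The log2 fold change was -0.33 ± 0.09 (SE, edgeR adjusted p = 0.612) without the block and -0.33 ± 0.05 (edgeR adjusted p = 1.78e-10) with it.

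Srrm1 (ENSMUSG00000028809, chr4:135320484-135353321, minus strand), a co-activator of splicing, had 159 CPM in control and 144 in PEDF in experiment 1, and 173 and 158 in experiment 2. Its log2 ratios were -0.14 (-0.22 to -0.05) and -0.13 (-0.20 to -0.06). The control of experiment 1 and the PEDF library of experiment 2 differed by less than 1 CPM, and the log2 fold change did not pass the test (-0.13, 95% interval -0.29 to 0.03, edgeR adjusted p = 0.758; blocked edgeR adjusted p = 0.130).

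Other annotated genes overlap 4 of the protein genes, and reads in the overlaps depend on the unstated strand setting. Elob, on the opposite strand at Srrm2, had 2123 and 2137 counts in experiment 1 and 2111 and 2253 in experiment 2, and did not share the pattern of Srrm2. Donson, on the opposite strand at Son, had 430 and 388, then 542 and 533. Masp2, on the opposite strand at Tardbp, had 143 and 87, then 207 and 142. Gm12940 overlaps Sfpq on its own strand, with 233 and 274, then 449 and 382.

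**Figure D2:**
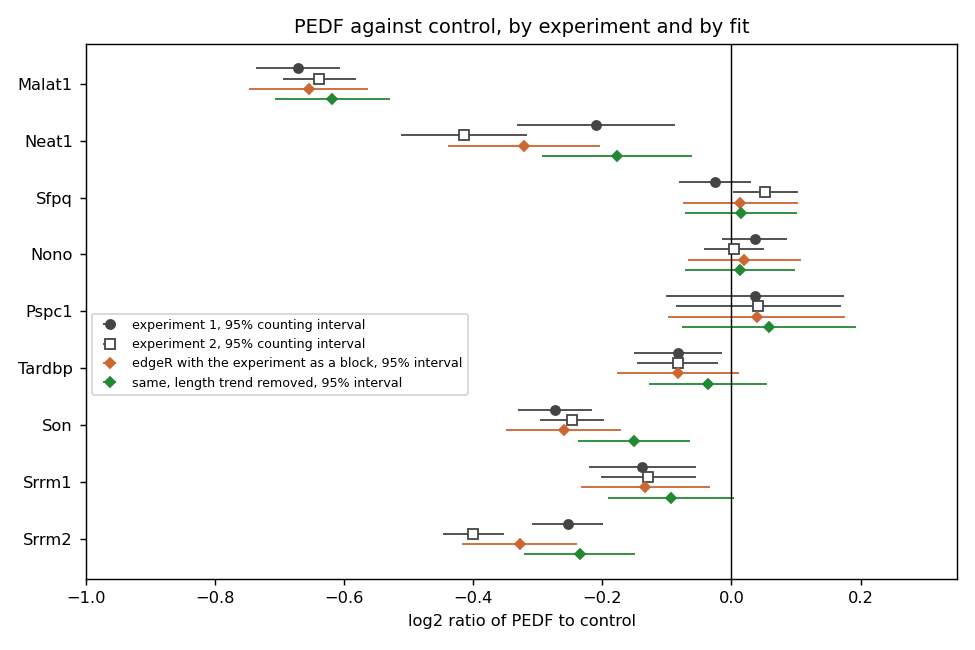
Log2 ratio of PEDF to control (horizontal axis) for each gene, with filled circles for experiment 1 and open squares for experiment 2, bars giving the 95% counting interval. Orange diamonds are edgeR estimates with the experiment as a block, green diamonds the same with the trend over exon length removed, and their bars 95% intervals. Malat1 lies farthest to the left, Son and Srrm2 lie left of 0, and Sfpq, Nono and Pspc1 sit around 0.

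Of the protein genes, 0 of 7 had an adjusted p under 0.05 in edgeR without the block, where 0.00516% of all genes tested did. At an unadjusted p under 0.05 the count was 2 of 7 (Son and Srrm2), against 6.88% of all genes. DESeq2 and limma gave 0 adjusted and 2 unadjusted, against 2.14% and 4.97% of all genes unadjusted. With the block, 2 of 7 were called lower and 0 higher, against 2.07% and 1.67% of all genes tested. The shares of all genes given here, also for the lists, include genes with as few as 10 counts in total. Of the 19384 tested, 8764 had a mean of at least 16 CPM, as did each protein gene. The share among genes of like level was not computed and can differ. By level alone, 6 of the 9 genes were lower with PEDF in both experiments, where 28.8% of all genes tested were. Both PEDF libraries lay below both controls for 5 of the 9 (Malat1, Tardbp, Son, Srrm1 and Srrm2), where 18.4% of all genes did. The choice of Malat1 and Neat1 fixed part of these last counts. The median log2 fold change of the 7 protein genes was -0.08 with or without the block and -0.04 with the block and the trend over length removed, against 0.00 for all genes.

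Exon length moved with these differences. With the block, genes of at least 16 CPM with 8 kb of exon or more (n = 1877) had a median log2 fold change of -0.08, and those of 1 to 2 kb (n = 747) had 0.09. Son has 14907 bases of exon, Srrm2 12842 and Neat1 20771, whereas Nono has 4375, Sfpq 4743, Pspc1 5734, Srrm1 7299, Tardbp 7796 and Malat1 6983. With the trend over length removed from the blocked comparison, Malat1 stood at -0.62 and Neat1 at -0.18. Son stood at -0.15 (edgeR adjusted p = 0.0341) and Srrm2 at -0.23 (edgeR adjusted p = 2.33e-05), so both were still called lower. That is 2 of 7 protein genes, against 1.28% of all genes called lower in this comparison. Tardbp stood at -0.04, Srrm1 at -0.09, Sfpq at 0.02, Nono at 0.01 and Pspc1 at 0.06, and 0 of these 5 passed in edgeR, with or without adjustment of p. Neat1, Son and Srrm2 thus moved toward 0 by more than Malat1 did.

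**Figure D3:**
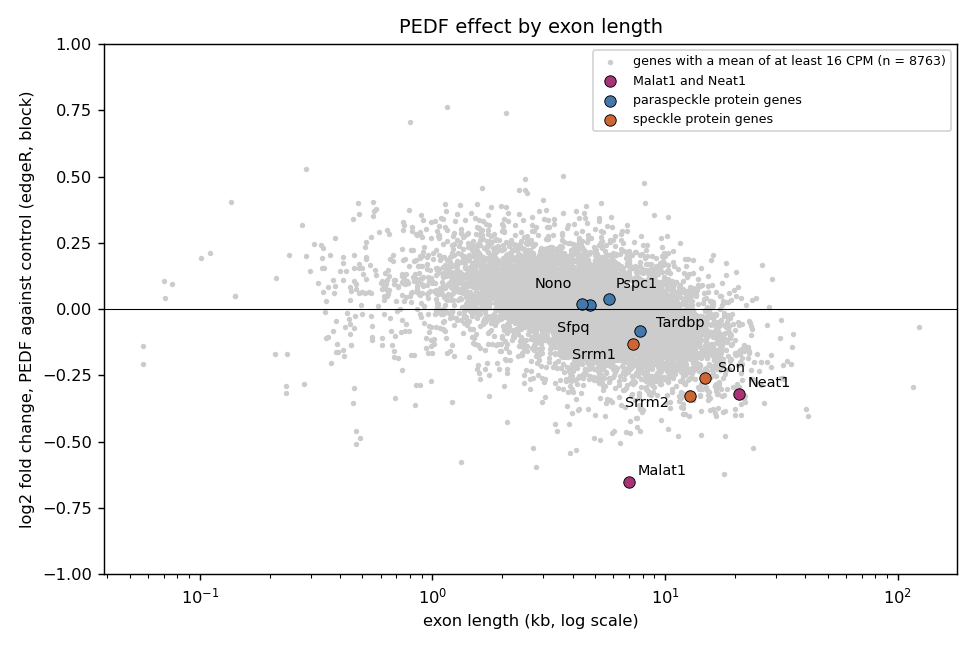
Blocked edgeR log2 fold change (vertical axis, from -1 to 1, with 2 genes outside) against exon length (kb, log scale) for 8763 genes with a mean of at least 16 CPM, in grey, and for the 9 genes in colour. The grey cloud slopes downward with length, Son, Srrm2 and Neat1 lie near its long end, and Malat1 lies under nearly all genes of its own length.

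The levels of the 9 genes per length are compared in the plot of TPM by gene. Nono was the highest (267 ± 2.49 TPM, SD, n = 4), followed by Sfpq (205 ± 7.95) and Malat1 (113 ± 32). Below them came Srrm2 (84.1 ± 15.2), Tardbp (82.5 ± 4.41), Son (64.8 ± 9.05), Srrm1 (61.6 ± 5.95), Pspc1 (27.2 ± 0.370) and Neat1 (11.5 ± 2.91). The library ranges of Malat1 and Srrm2, of Srrm2 and Tardbp, and of Son and Srrm1 overlapped over the 4 libraries of both groups. Within each library, however, Malat1 was above Srrm2. Srrm2 was above Tardbp in both controls (84.0 against 83.6 TPM, and 105 against 87.5) and below it in both PEDF libraries (68.6 against 76.8, and 78.9 against 82.1). Son was above Srrm1 in all libraries but the PEDF library of experiment 1, so neither of these pairs has a fixed order. Pspc1 was the least abundant of the paraspeckle protein messages, with 7.23 to 7.71 times as much Sfpq as Pspc1 in TPM. The TPM of Neat1 is divided by the exon length of the whole gene, which is far longer than the 3004 bases of the short transcript.

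**Figure D4:**
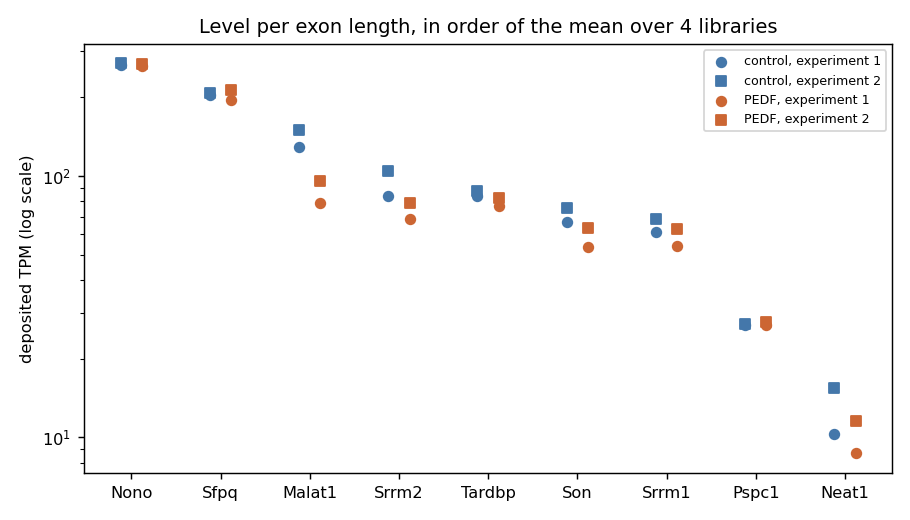
Deposited TPM of each gene in the 4 libraries (vertical axis, log scale), in order of the mean, with blue for control, orange for PEDF, circles for experiment 1 and squares for experiment 2. Nono and Sfpq lead at about the same value in every library, Malat1 spreads from 78.9 to 150 TPM, and Neat1 is lowest at 8.69 to 15.5 TPM.

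The difference between the experiments, whose MEFs came from different embryos, played no part in the choice of the genes and was tested for all 9. With treatment as a term, 4 of 9 were called, each higher in experiment 2, where 2.3% of all genes were called higher. Neat1 differed most, with a log2 difference of 0.45 ± 0.06 (SE, edgeR adjusted p = 4.27e-11), and was 76.1 against 111 CPM in control and 65.8 against 83.5 CPM in PEDF. Srrm2 (0.21, edgeR adjusted p = 0.00044), Malat1 (0.19, 0.00269) and Son (0.16, 0.0204) followed. Sfpq, Nono, Pspc1 and Tardbp stood at 0.03, -0.03, -0.03 and 0.03 on the log2 scale, with edgeR adjusted p of 0.837 or more. Srrm1 stood at 0.13 (edgeR adjusted p = 0.139). With the trend over length removed, 3 of 9 were called, against 1.76% of all genes called higher, and Son no longer passed (0.08, edgeR adjusted p = 0.473). In DESeq2 Malat1, Srrm2 and Son had adjusted p of 0.0990, 0.0543 and 0.196, Neat1 had none assigned (unadjusted p = 9.22e-05), and without the treatment term or in limma 0 of the 4 passed.

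The other known proteins of these bodies were taken as lists, with the 9 genes left out. Of 31 paraspeckle protein genes, 0 passed the test without the block, in either direction. With it, 1 was called higher and 0 lower, against 1.67% and 2.07% of all genes tested, and with the block in DESeq2 0 were called (1 at an unadjusted p under 0.05, against 2.33% of all genes). The gene called in edgeR was Nudt21, which encodes a subunit of the cleavage factor that favours the short polyadenylated Neat1 transcript, with 1231 and 1568 counts in control and PEDF of experiment 1, and 1419 and 1617 in experiment 2. Its log2 fold change was 0.23 (edgeR adjusted p = 0.00515). The lowest value among those of at least 16 CPM was that of Akap8l (-0.17, edgeR adjusted p = 0.323). The median of the list was -0.03, and 14 of 31 (45.2%) were lower in both experiments, where 28.8% of all genes were. With the trend over length removed the median was 0.00018, and 2 genes were called higher and 1 lower. In that comparison 430 of 19363 genes were called in either direction, and 1.28% were called lower. Matr3 (0.21, edgeR adjusted p = 0.00929) and Dazap1 (-0.17, edgeR adjusted p = 0.0420) were added to Nudt21.

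Of 34 speckle protein genes, 0 passed without the block, and 5 had an unadjusted p under 0.05, where 6.88% of all genes did. With the block 5 were called lower and 0 higher, against 2.07% and 1.67% of all genes tested. With the block in DESeq2, 0 of 34 had an adjusted p under 0.05 and 5 an unadjusted one, against 2.33% of all genes unadjusted. The genes called in edgeR were Prpf4b, a kinase of the spliceosome (-0.26, edgeR adjusted p = 0.000398), Arglu1 (-0.26, 0.000995), the cyclin L2 gene Ccnl2 (-0.25, 0.000187), the splicing factor gene Srsf5 (-0.21, 0.00124) and Snrnp70, which encodes a protein of the U1 particle (-0.17, 0.0159). Ccnl2 had 2107 and 1888 counts in control and PEDF of experiment 1, and 3008 and 2503 in experiment 2. Alyref, an mRNA export factor gene, had the highest value (0.08, edgeR adjusted p = 0.646). The median of the list was -0.08, and 23 of 34 (67.6%) were lower in both experiments, where 28.8% of all genes were. With the trend over length removed 4 of the 5 were called, against 1.28% of all genes called lower in that comparison. Snrnp70 was not called (-0.12, edgeR adjusted p = 0.160), and the median of the list was -0.04.

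Of 18 genes that process or modify these RNAs, 0 passed in edgeR with or without the block, and 0 had an unadjusted p under 0.05 without it, where 6.88% of all genes did. With so few genes these counts are near the share over all genes. They include subunits of RNase P, RNase Z and the enzymes that place N6-methyladenosine. Elac2, which encodes the RNase Z that trims the small tRNA-like RNA of Malat1, had -0.12 (edgeR adjusted p = 0.519), and the methyltransferase subunit gene Mettl14 had 0.22 (edgeR adjusted p = 0.321). The median of this list was 0.08 with the block, with or without the length trend.

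**Figure D5:**
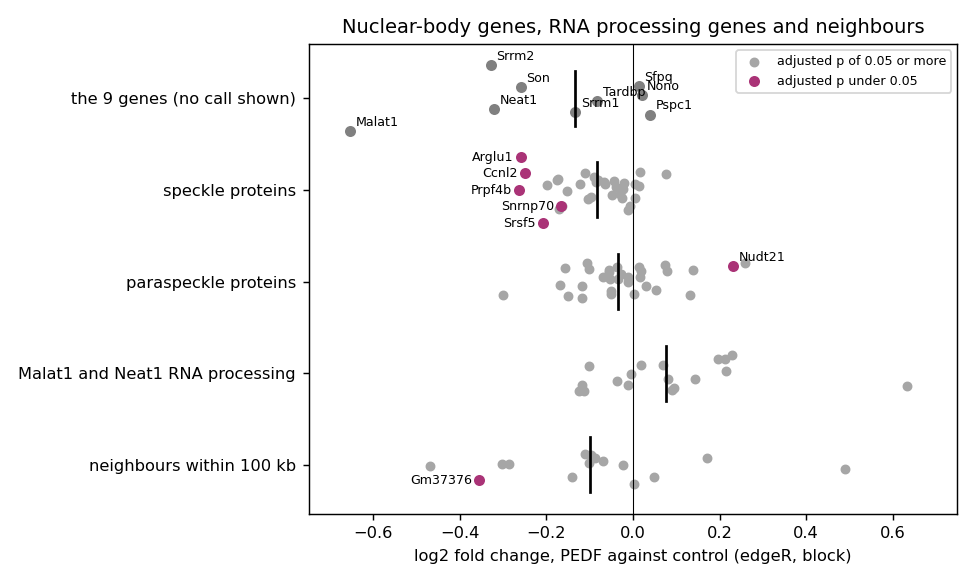
Blocked edgeR log2 fold change (horizontal axis) of the 9 genes, of the genes in 3 lists and of those within 100 kb of Malat1 or Neat1, with a black bar at each median and genes of an adjusted p under 0.05 in purple. For the 9 genes no call is marked. Speckle protein genes lie mostly left of 0, and Znrd2, a neighbour with 0 to 13 counts in a library, lies outside the axis.

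The pattern of Malat1 over the 4 libraries was compared with that of 6145 genes of at least 32 CPM, as the root mean square difference of centred log2 CPM. The 5 nearest were Gm9913 (0.064), Leng8 (0.0934), Lama5 (0.097), Col7a1 (0.112) and Hspg2 (0.114). Lama5, Col7a1 and Hspg2 encode a laminin chain, a collagen and perlecan, which are proteins of basement membranes. Gm9913 had 48.4 and 33.7 CPM in experiment 1, and 60.8 and 38.6 CPM in experiment 2. Among the other 8 genes Srrm2 was the nearest to Malat1 (0.17), with 47 genes nearer, then Son (0.198, with 96 nearer) and Neat1 (0.222, with 208 nearer). Pspc1 was the farthest (0.364). The 4 libraries are few for such a likeness, and it follows both the PEDF difference and the difference between experiments.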

How the data were processed

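The authors selected polyadenylated RNA from 2 control and 2 PEDF cultures, made directional libraries, trimmed paired reads (Trimmomatic 0.38), aligned them (HISAT2 2.1.0, mm10) and counted reads per gene (featureCounts 1.6.3), per the labels and the submitters' processing notes. The deposited counts are not normalized, and the deposited TPM values sum to the same total in each library. Annotation and strand setting are not given in the sources used here, and 54784 of 55487 rows have the coordinates of GENCODE M21, whose exon lengths were used.

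Counts were tested in R 4.3.3 with edgeR 4.0.16 (TMM, robust quasi-likelihood, Benjamini-Hochberg adjustment over 19384 genes with at least 10 counts, threshold 0.05), without a covariate. The labels pair the libraries by experiment and embryos. Over 10722 genes, the difference between experiments in control and in PEDF correlated (r = 0.423, across genes), so a fit blocked by experiment was added to the comparison. Trends over exon length were removed as spline offsets with 5 degrees of freedom. Alternatives were RLE factors, DESeq2 1.42.0, 2 filters, limma 3.58.1 on log2(TPM + 1) and log2(TPM + 0.1), and each library left out. The code was tested on simulated data. Named were all 9 genes, those called with the block (6 per list at most) and the highest and lowest of each list above 16 CPM, rows within 100 kb, and the 5 genes nearest Malat1 in pattern. Matr3, Dazap1 and the genes overlapping the protein genes were named after their values were seen. The genes and lists were chosen with earlier results of these data known.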

Additional observations from a re-analysis of the deposited data

Results flagged for a closer look

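Sfpq moved in opposite directions in the experiments, with a log2 ratio of PEDF to control of -0.0258 in experiment 1 and 0.0527 in experiment 2. Each experiment had 1 library per group, and the difference between them was not tested.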

How the results depend on the processing

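The count of genes with an adjusted p under 0.05 between PEDF and control was 1 in edgeR without the replicate block and 726 with it. It was 4 with DESeq2, 117 with the block in DESeq2, 106 without the filter on low counts, 0 with filterByExpr (1187 unadjusted), 0 with limma on log2(TPM + 1) (964 unadjusted), 430 with the block and the length trend removed, 403 with the length and GC trends removed, and 8 to 332 with each library left out. The trends over GC, and over length in the comparison of experiments, were added after seeing the data. Son stood at -0.26 with the block in edgeR and in DESeq2, -0.15 with the length trend removed and -0.14 with GC also removed, and was called in each. Srrm2 likewise was called at -0.33 and -0.33 with the block, -0.33 without the filter, -0.23 and -0.22, and pairing changed the call of no other protein gene. The fits with each library left out had no block and kept 1 library in a group, so they are given as log2 fold changes only. They did not retest the calls made with the block, and the difference between experiments enters each of them. With each library left out Son ranged from -0.35 to -0.18, Srrm2 from -0.46 to -0.19, Srrm1 from -0.20 to -0.07, Tardbp from -0.10 to -0.07, Pspc1 from 0.02 to 0.06, Sfpq from -0.0184 to 0.0457, Nono from -0.00393 to 0.0444, Malat1 from -0.76 to -0.55 and Neat1 from -0.57 to -0.0257, the last without the control of experiment 2. Malat1 was -0.62 with the length trend removed and -0.68 with limma on log2(TPM + 0.1), and Neat1 was -0.18 and -0.17 with the length trend and with both trends removed. In limma the direction of Sfpq (-0.0103 and -0.0104) and of Nono (-0.00379 and -0.0038) turned at both pseudocounts. The difference between experiments turned for Nono (0.0229) and Pspc1 (0.0234) in limma on log2(TPM + 1), with no other pseudocount run, and for Tardbp with the length trend removed (-0.00935). The cause of these changes was not tested. With 2 libraries per group and 1 per experiment, the differences of Tardbp and Srrm1 did not pass the threshold, which does not show that their levels were equal.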
